A study of Drosophila melanogaster with 87 samples.

Results

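The genes that changed in whole heads of Drosophila melanogaster when Mettl3 was knocked down were examined directly after heat shock (HS). The comparison used 10 of the 87 libraries of the series: the input RNA of 5 pools of heat-shocked Mettl3 RNAi heads and of 5 pools of heat-shocked control heads. All flies carried DaGal4, a driver that is active in most cells, so the RNAi was not restricted to neurons. It drove a hairpin against Mettl3 (TRiP.HMS06028 in attP2, BL80448, a y v stock) or, in the control, a hairpin against mCherry, a protein that flies do not have (VALIUM20-mCherry in attP2, BL35785, a y sc v sev stock). The flies were male progeny of crosses kept at 25 °C. The labels have them collected 1 to 2 days after eclosion, whereas the protocol for HS has flies aged to 6 days, so the age at HS is uncertain. Both groups were held at 38.5 °C for 30 min in vials of 20 flies, and 200 heads were pooled per sample at the end of the HS. The libraries were the unprecipitated part of fragmented polyA+ RNA prepared for m6A immunoprecipitation (m6A-IP), in an experiment with an NEB antibody (3 pools per genotype) and an experiment with a SYS antibody (2 pools per genotype). There was 1 RNAi line per genotype, so any other difference between the stocks cannot be told apart from the loss of Mettl3.

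N6-methyladenosine (m6A) is adenosine with a methyl group added inside an mRNA. Mettl3 carries the catalytic site for this reaction, and Mettl14, its partner, helps to bind the RNA. fl(2)d, vir, nito, Flacc and Hakai make up the rest of this writer complex. The mark is read by proteins with a YTH domain: in flies these are Ythdc1, which is nuclear and acts in splicing, and Ythdf, which is cytoplasmic and is expressed in the nervous system. Fmr1, the fly relative of the fragile X protein, has also been described as a reader. HS itself induces Hsp70 and the other chaperone genes within minutes, through the transcription factor Hsf.

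The 10 libraries held 12164686 to 14404208 counts in genes. In the libraries of both genotypes 27 heat shock protein genes took 5.23 to 6.82% of counts, against 0.426 to 0.91% in the basal heads of the same experiment. The experiment separated the libraries more than the genotype did. The first principal component, with 75.5% of the variance, separated NEB from SYS, the second (7.64%) separated SYS pool 1 from SYS pool 2, and the third (5.97%) separated the genotypes. The experiment was therefore a term in every fit, and levels are given for NEB and SYS apart. Levels are given as CPM, a gene's counts scaled to a library of standard size. They are not corrected for gene length and are compared only within a gene.

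Mettl3 RNA was lower in every Mettl3 RNAi pool. In control heads Mettl3 (3R, 24032157 to 24034257, dm6) was at 3.95, 4.94 and 3.6 CPM in NEB and at 4.68 and 5.29 CPM in SYS. In Mettl3 RNAi heads it was at 0.404, 0.506 and 0.459 CPM in NEB and at 0.537 and 0.565 CPM in SYS. The genotypes did not overlap, and these levels stood for 50 to 72 counts per control library and 6 to 7 per Mettl3 RNAi library. The log2 fold change was -3.16 (SE 0.26, edgeR adjusted p = 4.12e-06), with differences of -2.82 within NEB and -2.87 within SYS. The exact two-sided permutation p was 0.0167, the smallest that the 120 relabellings within NEB and SYS allow.

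Of the other members of the writer complex and of the readers, Ythdc1 alone changed. Ythdc1 (3L, 3370451 to 3374170) was at 302, 318 and 319 CPM in NEB controls and at 172 and 209 CPM in SYS controls. It was at 170, 185 and 183 CPM in NEB Mettl3 RNAi heads and at 128 and 127 CPM in SYS Mettl3 RNAi heads. Every Mettl3 RNAi pool lay below every control pool of its own experiment. The log2 fold change was -0.71 (SE 0.07, edgeR adjusted p = 0.000388), with a difference of -0.80 within NEB and -0.57 within SYS. The other members of the writer complex gave log2 fold changes of 0.19 for Mettl14 (adjusted p = 0.418), -0.05 for fl(2)d (0.709), 0.07 for vir (0.779) and -0.17 for nito (0.202) in edgeR. Flacc, at 0.01 (adjusted p = 0.946), and Hakai, at -0.02 (0.988), changed sign when only the NEB libraries were used (-0.01 and 0.04). The remaining readers gave -0.07 for Ythdf (0.611) and -0.14 for Fmr1 (0.239). The knockdown was thus seen for Mettl3 itself, and Ythdc1 RNA fell with it.

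**Figure D1:**
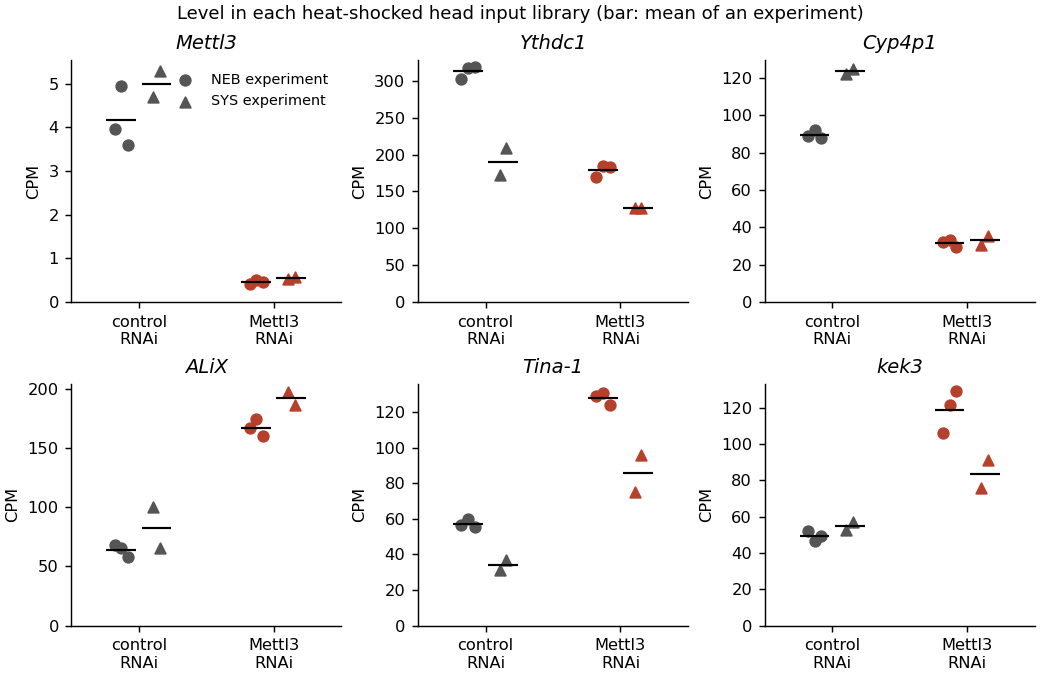
Level in CPM of 6 genes in each of the 10 heat-shocked head input libraries, by genotype (grey control RNAi, red Mettl3 RNAi). Circles are the 3 NEB pools, triangles the 2 SYS pools and bars the mean of an experiment. In each gene the genotypes are apart within NEB and within SYS, which was a condition of the choice for Cyp4p1, ALiX, Tina-1 and kek3. For Ythdc1 the SYS controls (172 and 209 CPM) lie near the NEB Mettl3 RNAi pools (170 to 185 CPM).

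Among the genes that were called, more rose than fell with the knockdown, while 4671 of all 9965 genes were above 0. Of 9965 genes tested, 283 (2.84%) passed an adjusted p under 0.05 in edgeR: 198 were higher in Mettl3 RNAi heads (1.99%) and 85 lower (0.853%). The median log2 fold change of the higher genes was 0.47 (0.20 to 2.33) and that of the lower genes -0.39 (-3.16 to -0.18), while the median over all genes tested was -0.01. A change of over 1 on the log2 scale was seen in 28 of the higher and 16 of the lower genes. The pools of the 2 genotypes did not overlap within NEB nor within SYS in 192 of the higher and 82 of the lower genes. Over all 9965 genes, 405 (4.06%) were apart in this way with Mettl3 RNAi higher and 337 (3.38%) with it lower. Deviations of pools of the same number were correlated, at 0.146 to 0.195 in NEB and at 0.667 in SYS, where 2 pools per genotype give a single value. With the pool number as a replicate block 842 genes passed (8.45%), with all 283 among them. Of the 842 genes 538 were higher (5.4%) and 304 lower (3.05%). Leaving out a library gave between 95 genes (without NEB control pool 2) and 522 genes (without SYS control pool 1). With the 4 SYS libraries alone 0 genes passed in edgeR, and 335 had an unadjusted p under 0.05.

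**Figure D2:**
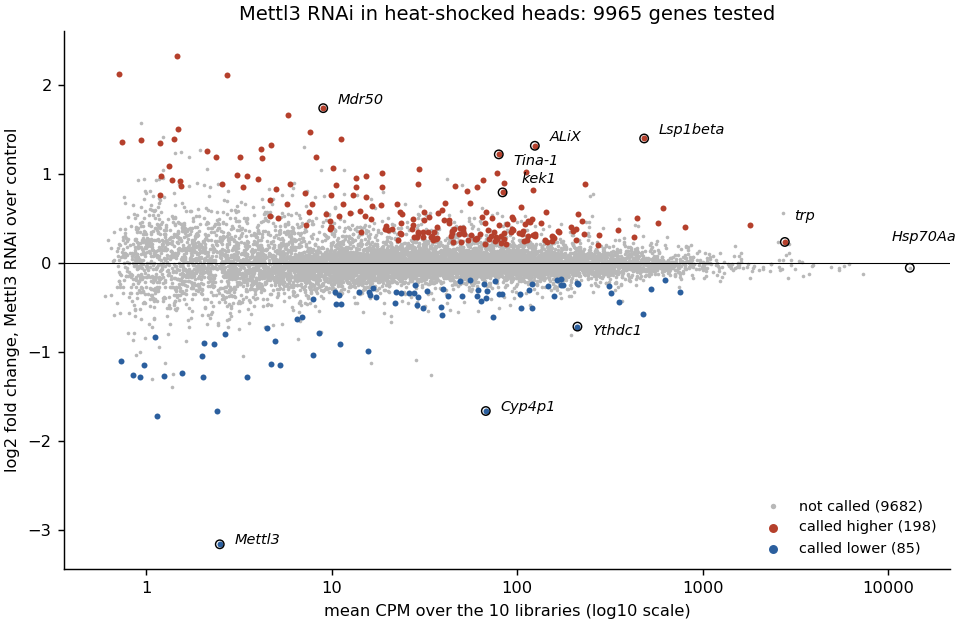
Log2 fold change of Mettl3 RNAi over control in heat-shocked heads against the mean CPM over the 10 libraries (log10 scale), 1 point per gene of 9965 tested. Red points are the 198 genes that were higher, blue points the 85 that were lower; Mettl3 is the lowest point at -3.16, and Hsp70Aa, at the right edge, lies at -0.05.

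The largest rises were taken from called genes averaging 100 counts or more in a genotype, with no overlap within NEB or SYS. They were led by Mdr50, Obp99a and Lsp1beta. That the genotypes were apart within an experiment was thus a condition of the choice, here and for the largest falls. Lsp1beta (2L, 898500 to 901316), a storage protein made in the fat body, was at 412, 362 and 444 CPM in NEB controls and at 1127, 1030 and 1055 CPM in NEB Mettl3 RNAi heads. In SYS it was at 62.4 and 48.1 CPM in controls and at 196 and 97.3 CPM with Mettl3 RNAi. The genotypes were apart in both experiments although the level was several times lower in SYS, and the log2 fold change was 1.40 (SE 0.16, edgeR adjusted p = 0.00104). ALiX (3R, 27696466 to 27700110), which works with the ESCRT machinery in membrane remodelling, was at 67.9, 65.8 and 58.4 CPM in NEB controls and at 100 and 65.3 CPM in SYS controls. With Mettl3 RNAi it was at 167, 175 and 160 CPM in NEB and at 198 and 187 CPM in SYS. All 5 Mettl3 RNAi pools were above all 5 control pools (log2 fold change 1.32, SE 0.10, edgeR adjusted p = 0.000127). Part of ALiX overlaps HSPBAP1 on the opposite strand.

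Tina-1 (2R, 24940625 to 24942413) had the smallest adjusted p among the 12 largest rises. It was at 56.5, 60 and 55.6 CPM in NEB controls and at 129, 131 and 124 CPM in NEB Mettl3 RNAi heads. In SYS it was at 31.2 and 37 CPM in controls and at 75.2 and 96.2 CPM with Mettl3 RNAi. Its level was more than doubled in each experiment, with a log2 fold change of 1.22 (SE 0.08, edgeR adjusted p = 2.57e-05). CG30424, further along 2R (24965275 to 24967298), was at 2.68 to 6.78 CPM in controls and at 6.98 to 13.8 CPM with Mettl3 RNAi (log2 fold change 1.19, SE 0.11).

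kek3 (2L, 15552723 to 15583978), a membrane protein with leucine-rich repeats and an immunoglobulin domain, was at 52.2, 46.3 and 49.3 CPM in NEB controls and at 52.5 and 56.7 CPM in SYS controls. It was at 106, 121 and 129 CPM in NEB Mettl3 RNAi heads and at 75.8 and 91 CPM in SYS Mettl3 RNAi heads. The genotypes did not overlap, but the difference was 1.27 on the log2 scale within NEB and 0.60 within SYS. The fitted log2 fold change was 1.01 (SE 0.12, edgeR adjusted p = 0.0016).

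The other large rises were of lower level. Mdr50, an ABC transporter of the P-glycoprotein kind, had the largest log2 fold change (1.74, SE 0.34, edgeR adjusted p = 0.0225), from 1.84 to 6.13 CPM in controls to 4.38 to 18.4 CPM. Its ranges overlapped across experiments but not within them. Obp99a, an odorant-binding protein, followed with 1.67, and zye, a protein with a zona pellucida domain, with 1.39. flz, a serine protease, gave 1.07 and CG31036 gave 1.05. The cuticle gene Cpr67B gave 1.02, with 74 ± 29.6 CPM in controls and 149 ± 50.4 CPM in Mettl3 RNAi heads (SD, n = 5). CG30050 gave 1.02. Of these 7, Mdr50 and CG31036 missed the threshold without some of the libraries (adjusted p up to 0.0742 and 0.0896 in edgeR).

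The largest falls after Mettl3, chosen by the same rule as the rises, included 2 cytochrome P450 genes. Cyp4p1 (2R, 9240041 to 9242139) was at 89.2, 92.1 and 88 CPM in NEB controls and at 122 and 125 CPM in SYS controls. It was at 31.9, 33.1 and 29.6 CPM in NEB Mettl3 RNAi heads and at 30.6 and 35.5 CPM in SYS Mettl3 RNAi heads. The pools of a genotype lay close together within an experiment, and the genotypes were far apart (log2 fold change -1.66, SE 0.08, edgeR adjusted p = 4.12e-06). Cyp313a1, the other P450, was at 567 ± 64.6 CPM in controls and at 382 ± 53.3 CPM in Mettl3 RNAi heads (SD, n = 5), with every Mettl3 RNAi pool below every control pool (log2 fold change -0.57, SE 0.06, edgeR adjusted p = 0.000751). P450 enzymes oxidise lipids, hormones and foreign compounds; what these members act on was not measured.

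Noncoding and uncharacterised genes made up most of the other large falls. lncRNA:CR44645, which lies on 2R (20506195 to 20506895), was at 15.3 to 25.8 CPM in controls and at 6.95 to 13.3 CPM with Mettl3 RNAi (log2 fold change -0.99, SE 0.09). It overlaps lncRNA:CR44644 on the opposite strand, and whether the counting used strand is not stated. lncRNA:CR44417 was at 12.9 to 16.9 CPM in controls and at 6.47 to 9.66 CPM with Mettl3 RNAi (-0.91, SE 0.08), with no overlap. CG30083 fell by 1.03 on the log2 scale, CG10407 by 0.78, CG14419 by 0.61, CG7509 by 0.58 and CG14153 by 0.50. Cpr51A, a cuticle gene, fell by 0.63. Dgat2, which makes triglycerides, fell by 0.61 and had the highest adjusted p of the 12 (0.0441 in edgeR, up to 0.116 when a library was left out).

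Groups of genes chosen by function gave few calls each, and these are set beside the 1.99% of all genes that were higher and the 0.853% that were lower. Counts with the replicate block are read against 5.4% higher and 3.05% lower over all genes. Counts at an unadjusted p under 0.05 in edgeR are read against 1561 of all 9965 genes tested. Of 29 genes of the Egfr and MAPK pathway 2 were higher, with a median log2 fold change of 0.04. Both of the higher genes are inhibitors of the pathway. kek1 was at 47.2, 36.9 and 40.4 CPM in NEB controls and at 79.3, 74.9 and 84.3 CPM in NEB Mettl3 RNAi heads. In SYS it was at 89.3 and 98.6 CPM in controls and at 140 and 144 CPM with Mettl3 RNAi (log2 fold change 0.80, SE 0.09, edgeR adjusted p = 0.000858). The change in sty (sprouty) was smaller, at 0.24 (adjusted p = 0.036). With the replicate block 5 of the 29 passed (4 higher, 1 lower), which added the ligands spi and vn and rho, which processes ligands.

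Of 21 Notch and Hippo genes 2 were higher, and 6 with the replicate block, with a median log2 fold change of 0.06. sd, the DNA-binding partner of the Hippo effector Yorkie, was at 115, 111 and 116 CPM in NEB controls and at 142, 158 and 148 CPM in NEB Mettl3 RNAi heads. In SYS it was at 211 and 190 CPM in controls and at 252 and 244 CPM with Mettl3 RNAi, so the genotypes were apart in both (0.36, SE 0.05, edgeR adjusted p = 0.00483). wts, the kinase that restrains Yorkie, gave 0.30 (adjusted p = 0.0392). Clk, the activator of the circadian clock, was the 1 called gene of 10 clock genes: 59 ± 7.42 CPM in controls and 111 ± 26 CPM in Mettl3 RNAi heads (SD, n = 5; log2 fold change 0.91, adjusted p = 0.0127). Among 16 early-response factors, Atf3, a bZIP factor, gave 0.34 (edgeR adjusted p = 0.0481). With the replicate block 1 of the 16 was higher and 2 were lower.

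Proteins of the neuronal surface are described from families that were chosen after their values were seen. The dpr genes encode membrane proteins with immunoglobulin domains that bind partners of the DIP family and pair neurons in the fly brain. Of 21 dpr genes 5 were higher, and with the replicate block 11 were higher (5.4% of all genes). dpr3 was at 40.3 to 45.7 CPM in all controls and at 57.3 to 75.4 CPM in all Mettl3 RNAi heads, a log2 fold change of 0.67 (SE 0.08, edgeR adjusted p = 0.00109). dpr17 gave 0.45, dpr16 gave 0.43, dpr2 gave 0.36 and dpr9 gave 0.27. Of 10 DIP genes DIP-delta was higher (0.42, edgeR adjusted p = 0.026), and with the replicate block 2 were higher and 1 lower. Teh1, an auxiliary subunit of the neuronal sodium channel, was at 33.1, 33.1 and 36 CPM in NEB controls and at 69.8, 73.1 and 79.8 CPM in NEB Mettl3 RNAi heads. In SYS it was at 58.2 and 71.1 CPM in controls and at 95.9 and 108 CPM with Mettl3 RNAi (0.93, SE 0.10). Of the 5 genes of its TipE family Teh1 alone was above 0, and the median log2 fold change was -0.09. With the replicate block Teh1 was higher and Teh4 lower. Of 16 general neuron markers 3 were above 0, with a median log2 fold change of -0.05. None was called in edgeR, DESeq2 or limma-voom, and 2 had an unadjusted p under 0.05 in edgeR (both higher). With the replicate block onecut was higher (0.31, edgeR adjusted p = 0.00836).

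Cuticle genes gave the most calls of any list. Of 29 tested members of the Cpr family, which encodes chitin-binding cuticle proteins, 6 were higher and 1 lower, with a median log2 fold change of 0.27. With the replicate block 12 were higher and 3 lower, against 5.4% and 3.05% of all genes. In basal heads, without the block, 4 of 29 were higher and 4 lower, with a median of -0.01. Over all genes 2.54% were higher and 1.59% lower there. In heat-shocked brains 4 of 22 were higher and 0 lower, with a median of 0.30, against 3.6% and 2.72% of all genes. Cpr49Ae was at 164 ± 33.7 CPM in controls and at 300 ± 23.9 CPM in Mettl3 RNAi heads (SD, n = 5), and its pools did not overlap (0.89, SE 0.08, edgeR adjusted p = 0.000389). Cpr47Ea gave 0.96 and Cpr62Ba 0.89. Of the Cpr family 41 further genes were counted but were below the filter or at 0. Of 26 odorant-binding proteins Obp99a rose and Obp57c fell (-0.24, adjusted p = 0.0403), and with the replicate block 4 were higher and 4 lower.

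Metabolic and immune lists gave few calls. tobi, an alpha-glucosidase regulated by insulin-like signals from the brain, was at 21.1 to 305 CPM in controls and at 31.2 to 469 CPM with Mettl3 RNAi, with NEB and SYS far apart (log2 fold change 0.56, edgeR adjusted p = 0.0311; exact permutation p = 0.0333). Cyp6a8 gave 0.87 (adjusted p = 0.0156) and was the 1 called by edgeR of 31 antioxidant and detoxification genes; DESeq2 and the replicate block each called 3, with GstD3 and GstE1. Rel, the NF-kB factor of the Imd pathway, gave 0.29 (0.0259), and Drsl4, a Drosomycin-like peptide, gave -0.39 (0.026). Muscle genes were mostly below 0: of 23, 4 were above 0, the median log2 fold change was -0.12, and 1 was higher and 1 lower. With the replicate block 1 was higher and 5 were lower (26.1%, against 8.45% of all genes), and in DESeq2 1 and 3. Zasp52, a Z-disc protein, fell by 0.29 (edgeR adjusted p = 0.023), and the troponin C gene TpnC4 was at 1.09 to 2.13 CPM in controls and at 2.95 to 3.64 CPM in Mettl3 RNAi heads (1.19, 0.00639). In glia, Mdr65, an ABC transporter of the blood-brain barrier, gave 0.33 (edgeR adjusted p = 0.0237). In the retina the light-activated channel trp gave 0.24 (0.0401), and among pigment genes b, which makes beta-alanine, gave -0.37 (0.016). With the replicate block 3 of 13 glia genes were higher and 1 lower, and 2 of 26 retina genes were higher and 3 lower. In that fit 3 of 22 immune signalling genes were higher, and 3 of 34 sugar and lipid genes were higher and 1 lower. Over all genes the shares there were 5.4% higher and 3.05% lower. Mitochondrial ribosomal proteins had 3 lower of 72, mRpS35 (-0.30), mRpS17 (-0.36) and mRpS16 (-0.33), with 15 lower and 1 higher at an unadjusted p under 0.05. None of 85 cytosolic ribosomal, 63 respiratory chain or 32 proteasome genes was called by edgeR, DESeq2 or limma-voom. An unadjusted p under 0.05 in edgeR was seen in 2, 11 and 0 of them, all lower, against 1561 of all 9965 genes.

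**Figure D3:**
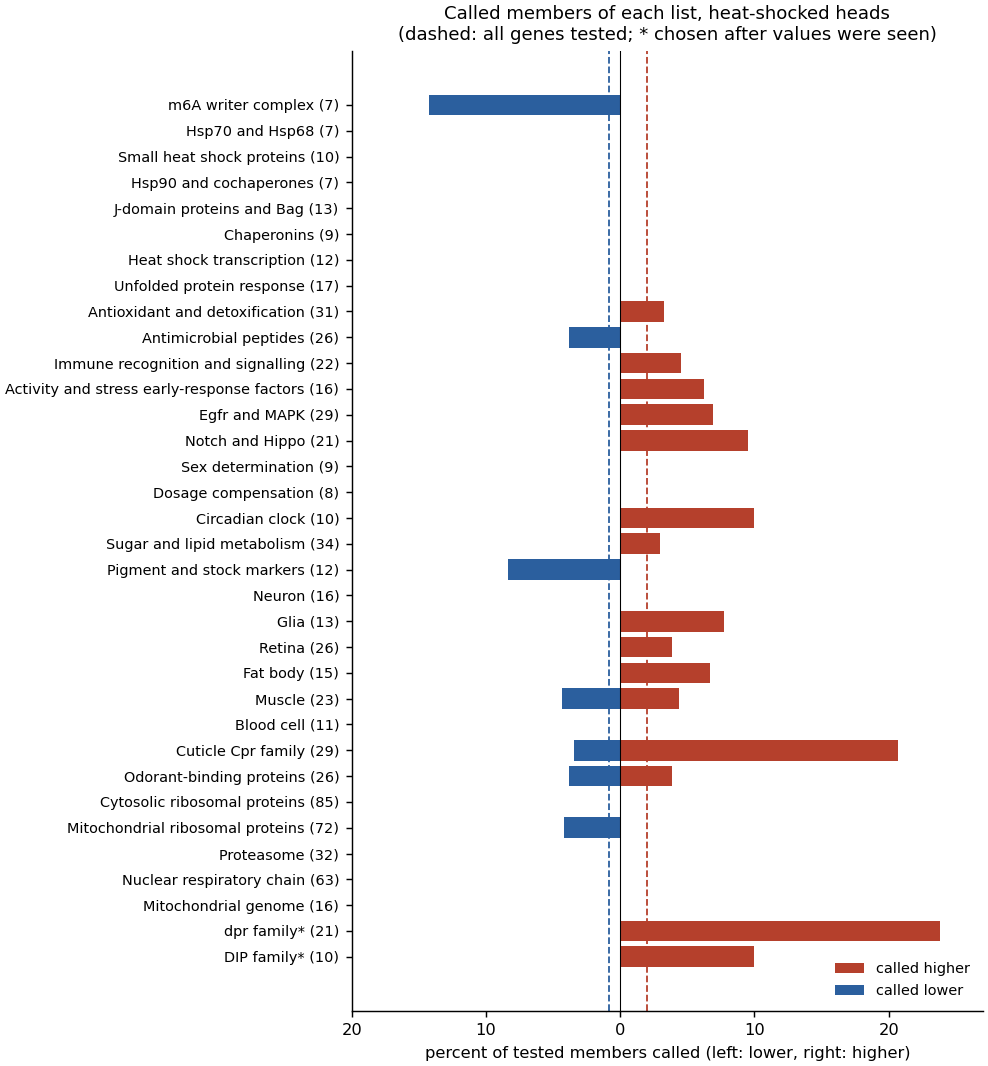
Percent of the tested members of each list that were called in heat-shocked heads, lower to the left (blue) and higher to the right (red), for lists with at least 7 tested members (number in brackets). Dashed lines are the shares over all 9965 genes (0.853% lower, 1.99% higher), and an asterisk marks a family chosen after its values were seen; the Cpr family has 6 higher and 1 lower of 29, and the dpr family 5 higher of 21.

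Of the genes described here, 55 were called, and 30 of them, among these Mettl3, Ythdc1, Cyp4p1, ALiX, Tina-1, Lsp1beta, kek1, kek3, sd, Teh1, dpr3, dpr16 and dpr17, passed without each library in turn. The other 25 missed the threshold without at least 1 library. For mRpS17, trp and Atf3 this was so for 9 of the 10 libraries, with adjusted p up to 0.107, 0.116 and 0.143 in edgeR. No call among these 55 changed direction.

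Markers of fat body moved with the genotype. The summed level of the 18 fat body markers was 9652 to 9996 CPM in NEB controls and 11650 to 13090 CPM in NEB Mettl3 RNAi heads. In SYS it was 3626 to 4895 CPM in controls and 5268 to 5458 CPM with Mettl3 RNAi. The genotypes did not overlap in either experiment, also without Lsp1beta (9290 to 9552 against 10590 to 12030 CPM in NEB). Of 15 markers tested 12 were above 0 and Lsp1beta was called; their median log2 fold change was 0.19. The part of this in the rise of Lsp1beta, tobi and other genes used by fat body was not tested, and in pools of whole heads fewer cells of a type and less RNA per cell cannot be told apart. Summed markers of neurons (9851 to 14590 CPM in controls, 9321 to 14070 CPM with Mettl3 RNAi), glia (4391 to 4814, 4191 to 4772) and retina (28790 to 39550, 30890 to 37620) overlapped. Those of muscle overlapped too, at 8632 to 9129 CPM in NEB controls and 7773 to 8860 CPM in NEB Mettl3 RNAi heads, and at 15720 to 20120 and 15940 to 18030 CPM in SYS. In basal heads 6 of 24 muscle genes were lower and 1 higher, against 1.59% and 2.54% of all genes. In heat-shocked brains 3 of 23 were lower and 0 higher, against 2.72% and 3.6% of all genes. The part of muscle content in the falls of muscle genes was not tested. Midgut markers summed to between 51.99 and 251.1 CPM, with 4 of 23 at 0 in every library, and those of testis and accessory gland to between 2.523 and 5.008 CPM, with 2 of 15 at 0. Of the genes that the stocks carry as mutant alleles, y gave -0.10, v -0.26 and sev -0.07 and none was called in the fit without the block (0 at an unadjusted p under 0.05); with the replicate block v passed (-0.25, edgeR adjusted p = 0.0156). sc was under 0.179 CPM in all libraries.

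None of the induced heat shock genes passed the test in the main edgeR fit. Hsp70Aa was at 13077, 12096 and 12843 CPM in NEB controls and at 14750 and 13553 CPM in SYS controls. It was at 11853, 11542 and 11250 CPM in NEB Mettl3 RNAi heads and at 15601 and 14071 CPM in SYS Mettl3 RNAi heads. Mettl3 RNAi pools lay below the controls in NEB and above or among them in SYS, and the log2 fold change was -0.05 (SE 0.05, edgeR adjusted p = 0.721), with 0.07 in SYS alone. Hsp70Ba gave -0.09 (0.529), with 0.02 in SYS alone, and DnaJ-1, an Hsp40 that works with Hsp70, gave -0.06 (0.599), with 0.01 in SYS alone. stv, a Bag cochaperone of Hsp70, gave -0.17 (0.299). It passed as lower in 3 of 22 alternative fits, but not with the replicate block (edgeR adjusted p = 0.0741). The copies of Hsp70 share reads, so their separate values are uncertain.

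Over all 64 heat shock genes tested 0 were called in the main edgeR fit. Of them 7 had an unadjusted p under 0.05 (5 higher, 2 lower), against 1561 of all 9965 genes. DESeq2 and limma-voom each called 1, the small heat shock protein l(2)efl. It was at 52, 59 and 48.7 CPM in NEB controls and at 76.4, 86.3 and 82.2 CPM in NEB Mettl3 RNAi heads, but at 25.8 and 41 CPM against 37 and 42.3 CPM in SYS, where the genotypes overlapped. Its log2 fold change was 0.48 (SE 0.12), with an adjusted p of 0.0713 in edgeR and 0.00698 with the replicate block. With the block CG4461, CG13133 and CG7872 passed too. lncRNA:Hsromega, a noncoding RNA of the HS response, gave 0.24 (edgeR adjusted p = 0.267) and passed as higher in 1 of 22 alternative fits. CCT4, a subunit of the TRiC chaperonin, gave 0.29 (0.27). All 9 tested chaperonin genes were above 0, with a median log2 fold change of 0.19, and none was called (1 at an unadjusted p under 0.05; 0 in DESeq2 and limma-voom). The stress-induced Turandot genes differed by more, but their pools were uneven: TotA gave -0.81 (adjusted p = 0.286) and TotC -1.26 (0.361), with TotC at 55.5 and 9.03 CPM in the 2 SYS controls.

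Genes whose m6A-IP enrichment depends on Mettl3 were taken from basal heads, since the input libraries carry no m6A measure. In basal SYS heads the ratio of m6A-IP to input differed between the genotypes in 10.4% of 10397 genes at an adjusted p under 0.05 in edgeR, and it was lower with Mettl3 RNAi in 938 of them (9.02%) and higher in 146 (1.4%). This measure subtracts the input, so a gene whose input RNA rises without an equal rise in the IP can enter the list. Of the 938, 935 were tested in heat-shocked heads: 64 were higher (6.84%) and 13 lower (1.39%), against 1.99% and 0.853% of all genes. With the replicate block 147 were higher (15.7%) and 32 lower (3.42%), against 5.4% and 3.05% of all genes in that fit. A log2 fold change above 0 was seen in 65.5% of the list and 46.9% of all genes, with medians of 0.06 and -0.01. The list held 32.3% of the higher and 15.3% of the lower calls. In heat-shocked brains 10.2% of the list and 3.69% of all genes were called higher, while the median log2 fold changes were 0.001 and -0.004. The NEB antibody gave a change in 14.3% of 10041 genes, lower in 1366 (13.6%) and higher in 69 (0.687%). Of those 1366 genes, where tested, 5.67% were higher in heat-shocked heads, and with the 811 genes on both lists 7.16%. A list that uses no Mettl3 RNAi library, made of the 943 genes enriched at least 2-fold in the control SYS m6A-IP over input, gave 4.65% higher of 860 tested. The SYS list of 938 genes rests on the sample titles, since the antibody field of the 2 Mettl3 RNAi basal SYS m6A-IP samples reads none. The IP levels alone gave no list: 0 of 10022 genes were called in edgeR, with 1188 at an unadjusted p under 0.05.

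The genes on this list are long, and so are the genes that rose. The median length of the exons was 3827 bases on the list and 2108 over all genes tested, 3487 in the higher genes and 1768 in the lower. The genes were put in 4 classes of equal number by this length. In the longest class, with 3568 to 71820 exon bases, 47 of 503 genes on the list were higher (9.34%) and 50 of 1981 others (2.52%). In the class of 2109 to 3567 bases the shares were 4.32% and 1.54%, from 1283 to 2108 bases 4.04% and 0.714%, and in the shortest class 1.89% (1 of 53 genes on the list) and 1.35%. The share on the list was thus above that of the other genes in each class, by little in the shortest. Genes on the list were also at higher levels, with a median of 71.3 CPM in controls against 26.03 CPM in the other genes. The part of level in these shares was not tested. kek1, sd, wts, sty, Atf3, kek3, dpr2, dpr16, dpr17, DIP-delta and Teh1, which rose, were on the list. So were Ythdc1 and lncRNA:CR44417, which fell, and fl(2)d, which was not called. Of the 12 largest rises kek3 alone was on the list, and of the 12 largest falls these 2.

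**Figure D4:**
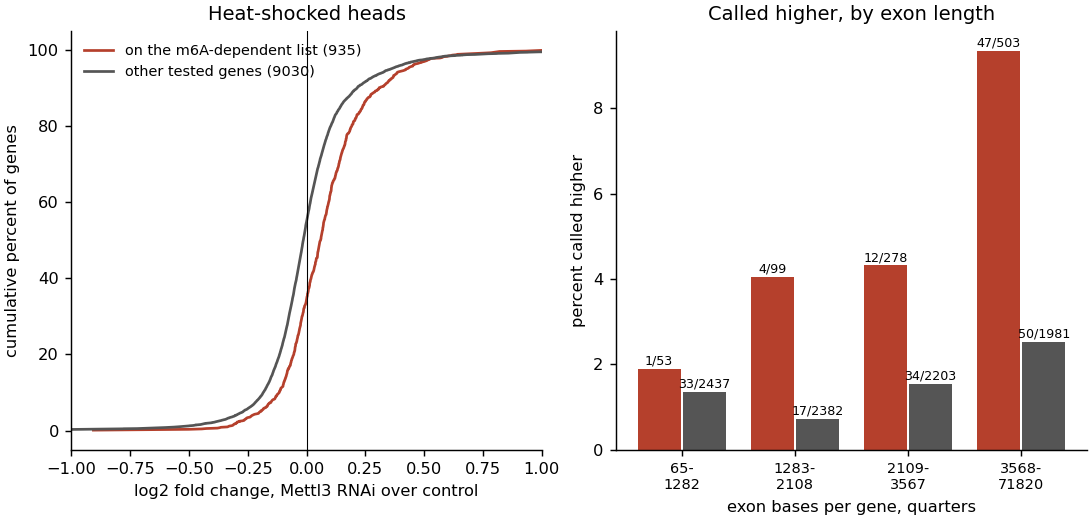
Left, cumulative percent of genes against the log2 fold change of Mettl3 RNAi over control in heat-shocked heads, for 935 genes on the m6A-dependent list (red) and 9030 others (grey); the axis is limited to -1 to 1. Right, percent of genes called higher by class of exon length, with the number called and the number of genes above each bar; the list reaches 9.34% in the longest class, against 2.52% of the others.

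The calls were not spread evenly along the genome. On chromosome arm 2R 91 of 2048 genes were called (4.44%; 54 higher, 37 lower), while the shares were 1.57% on X, 2.38% on 3R, 2.6% on 2L and 3.11% on 3L. Of 282 called genes with a position 66 (23.4%) had another called gene within 20 kb, against 1460 of 9654 genes that were tested and not called (15.1%). Neighbours that moved the same way include Cpr49Ae (2R, 12402216 to 12405108) and CG30050 (2R, 12408954 to 12409735). CG31036 lies beside trp on 3R, and Obp57c beside lncRNA:CR44645 on 2R. Whether neighbouring genes differ in sequence between the stocks was not tested.

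The genes called in heat-shocked heads were then followed in libraries that this comparison did not use. In basal heads (5 pools per genotype, the same crosses and experiments without HS), 188 of 192 of the higher genes were above 0 (97.9%, against 48.1% of all 9812 genes tested in both), with a median of 0.44. All 85 lower genes were below 0 there (51.9% of all genes), with a median of -0.37. Of the higher genes 122 were also called higher in basal heads, where 2.57% of all genes were, and of the lower genes 46 were called lower, where 1.6% were. In heat-shocked brains (dissected, 6 samples per genotype with the same RNAi lines), 173 of 186 of the higher genes were above 0 (93%, against 48.7%) and 68 of 78 of the lower genes below 0 (87.2%, against 51.3%). There, 88 and 29 were called in the same direction (3.69% and 2.79% of all genes). The sets share no library, but they share the RNAi lines and the driver. The basal comparison itself called 414 genes (4.13%; 2.54% higher and 1.59% lower), or 1421 with the replicate block, and the brain comparison 635 (6.32%; 3.6% higher and 2.72% lower).

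**Figure D5:**
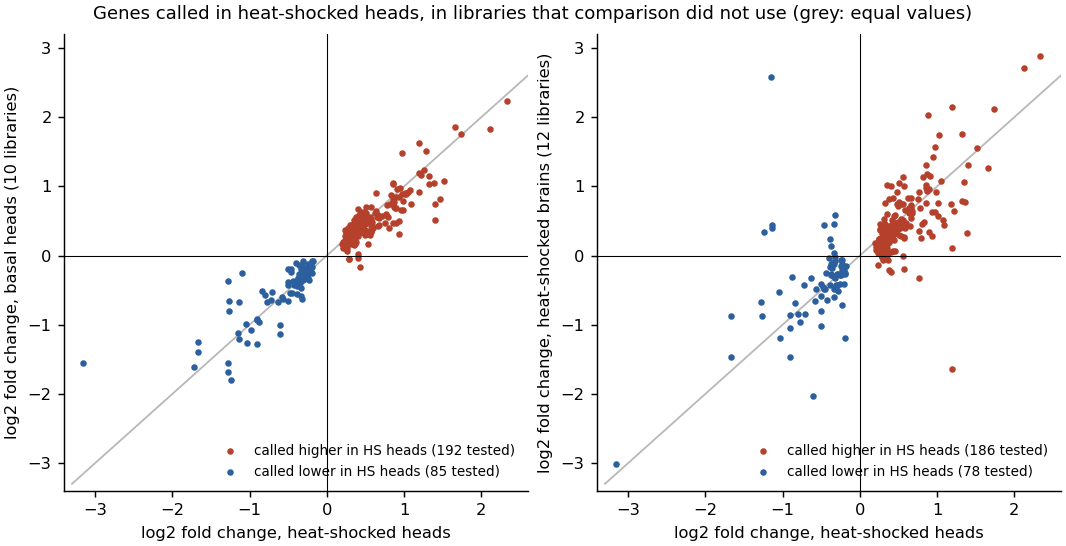
Log2 fold change of Mettl3 RNAi over control for the genes called in heat-shocked heads (x axis) and the same genes in basal heads (left) or heat-shocked brains (right, y axis). Red genes were called higher and blue genes lower in heat-shocked heads, and the grey line marks equal values; in basal heads 188 of 192 red genes and all 85 blue genes keep their sign, in brains 173 of 186 and 68 of 78, and TpnC4 is the red point at -1.63.

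Named genes held in the other libraries to a varying degree. Ythdc1 was at -0.52 in basal heads and -0.84 in brains, and ALiX at 1.15 and 1.76. Cyp4p1 was at -1.40 in basal heads and -0.87 in brains, where its level was far lower (6.761 to 7.595 CPM in controls, 3.067 to 5.41 CPM with Mettl3 RNAi). Tina-1 gave 1.16 and 0.65, and in brains its 6 Mettl3 RNAi samples (50.76 to 72.07 CPM) were all above the controls (35 to 39.03 CPM). kek1 gave 0.56 and 0.25. Rel, at 0.29 in heat-shocked heads, was at -0.05 in basal heads and -0.03 in brains. Lsp1beta gave 0.74 in basal heads (edgeR adjusted p = 0.463) and 1.31 in brains (0.0151). TpnC4, at 1.19 in heat-shocked heads and 0.92 in basal heads, was at -1.63 in brains (0.0581), and the difference of 2.84 between heads and brains was not called (SE 0.66, adjusted p = 0.151). Mettl3 itself was at -1.56 in basal heads and -3.01 in brains.

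The effect of the knockdown was compared between heat-shocked and basal heads in an interaction test. Of 10405 genes 1 passed (0.00961%), and 289 had an unadjusted p under 0.05. This gene, lncRNA:CR44206 (2R, 13329352 to 13344808), overlaps mir-184 on the same strand. Its counts are below the minimum used for the other named genes. It had 27, 30, 26, 44 and 41 counts in heat-shocked controls and 70, 70, 77, 77 and 91 counts in heat-shocked Mettl3 RNAi heads. In basal heads it had 7, 8, 7, 27 and 17 counts in controls and 4, 5, 4, 19 and 18 counts with Mettl3 RNAi. Counts were higher after HS in both genotypes. Mettl3 RNAi pools were above all controls after HS (log2 fold change 1.18, edgeR adjusted p = 0.000293) and below the controls in basal NEB heads, and the difference of the log2 fold changes was 1.48 (SE 0.30, edgeR adjusted p = 0.0143). With the replicate block it was 1.45 and did not pass (adjusted p = 0.0805), and the 1 gene that passed was Hsp70Ab, with a smaller log2 fold change after HS. In brains after HS lncRNA:CR44206 was at 0.74.

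Mettl3 came next in that test (difference -1.61, SE 0.29, edgeR adjusted p = 0.0652, and 0.0305 in DESeq2). It had 104 to 131 counts in basal controls and 23 to 57 counts in basal Mettl3 RNAi heads, and its log2 fold change was -1.56 there against -3.16 after HS. The basal SYS libraries differed in their heat shock genes. Hsp70Aa was at 39.23 to 40.7 CPM in basal NEB controls and at 35.81 to 41.29 CPM in basal NEB Mettl3 RNAi heads, but at 23.86 and 177.1 CPM in basal SYS controls and at 773 and 1556 CPM in basal SYS Mettl3 RNAi heads, with all heat-shocked pools at 11250 CPM or more.

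Between heads and brains after HS, 2 of 10743 genes passed (0.0186%), both with a smaller log2 fold change in heads, and 690 had an unadjusted p under 0.05. DESeq2 called 25, and with the replicate block in heads the same 2 genes passed. yellow-h, a gene of the yellow family, was at 31.3 to 84.6 CPM in control heads and at 33.2 to 75.7 CPM in Mettl3 RNAi heads (log2 fold change -0.01). In brains it was at 2.468 to 3.566 CPM in controls and at 5.169 to 5.562 CPM with Mettl3 RNAi (0.83), and the difference was -0.84 (SE 0.11, edgeR adjusted p = 0.00462). thw was at 0.78 in heads, where it was not called (0.165), and at 2.85 in brains, with 0.3056 to 0.4598 CPM in control brains and 1.799 to 3.32 CPM in Mettl3 RNAi brains; the difference was -1.96 (SE 0.33, adjusted p = 0.0483). Cyp4p1 (-0.80), kek1 (0.55) and Tina-1 (0.57) differed next, with adjusted p of 0.0758, 0.0758 and 0.0898, and did not pass.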

How the data were processed

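RNA was measured in the input libraries of heat-shocked heads, a fraction of fragmented polyA+ RNA saved before m6A-IP. Replicates were separate pools of heads. Per the labels and the methods of the study, the authors trimmed paired reads with Trim Galore, aligned them with STAR 2.7.3a to dm6 and counted reads over exons of FlyBase genes in union mode; the deposited values are whole-number counts per gene, not normalized, for 17562 genes and 87 libraries. Whether strand was used in counting is not given in the sources used here. Reads shared by near-identical copies (Hsp70) or overlapping genes can be lost or misassigned in this scheme, and longer or more abundant genes have more counts and smaller errors.

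Genes were tested with edgeR 4.0.16 (quasi-likelihood test, TMM scaling, R 4.3.3) with terms for genotype and antibody experiment, after a filter on low counts (minimum count 10, minimum total count 15), with Benjamini-Hochberg adjustment over all genes tested. A call is an adjusted p under 0.05. A log2 fold change is the fitted difference, with its SE from the same fit, and differences within NEB or SYS use a prior count of 2. Exact permutation tests used the 120 relabellings within NEB and SYS. The interaction tests fitted both sets of libraries together. The m6A-dependent list is the interaction of m6A-IP and input with genotype in basal heads. Gene positions came from a dm6 annotation, which matched 17495 of the genes. Named genes were all writer and reader genes, the 12 largest rises and 12 largest falls averaging 100 counts or more in a genotype, with no overlap within NEB and within SYS, the called members of the gene lists (in a list without calls or with over 6, a few with the largest change or level), and the genes called in the interaction tests. The members of the comparison, the lists and the named genes were chosen with earlier results of these data known. lncRNA:CR44206, the fat body sums and the dpr, DIP, kekkon and TipE families were singled out after their values were seen.

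Pool numbers are shared by the labels of both genotypes. The check of pairing correlated deviations from the group means: pools of the same number in heat-shocked heads gave 0.146 to 0.195 in NEB and 0.667 in SYS, and pools of different numbers -0.122 to -0.0324 and -0.667. Deviations from a mean cancel out within a group, so the negative values follow from the positive ones. In SYS they are the same value with its sign turned. Numbers in heads were taken as pairs on the same-number values alone (basal heads 0.141 to 0.277 in NEB and 0.628 in SYS), which is limited evidence. The blocked fit is given for the counts over all genes and for part of the gene lists. No 2 libraries were alike within sampling noise. Alternatives were DESeq2 1.42.0, limma-voom (limma 3.58.1), other scalings, no filter, no experiment term, each antibody experiment alone, each library left out and other m6A lists. The scripts were tested on simulated data.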

Additional observations from a re-analysis of the deposited data

Results flagged for a closer look

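In heat-shocked brains with Mettl3 RNAi, thw had 1 sample far from the others of its group: the lowest of 6 was at 1.799 CPM, with a median of 2.84 and a highest value of 3.32 CPM, and the gap was 0.653 of the whole range. Chance alone gives such a gap in about 1 in 20 groups of like samples. Several genes were checked in both genotypes, so a single gap of this kind is not unusual. The 6 samples were also taken to come from more than 1 sequencing set, which was inferred from their numbers alone. lncRNA:CR44206 is listed because its response to Mettl3 RNAi differed between heat-shocked and basal heads, by 1.48 on the log2 scale. The response of yellow-h differed between heat-shocked heads and brains, by -0.84, and that of thw by -1.96. These differences come from interaction tests in edgeR, with adjusted p of 0.0143, 0.00462 and 0.0483; for lncRNA:CR44206 DESeq2 gave 0.083 and edgeR with the replicate block 0.0805, and neither passed.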

How the results depend on the processing

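The count of 283 genes in heat-shocked heads depended on how the libraries were combined. DESeq2 gave 444 genes (319 higher, 125 lower), the fit with the replicate block 842, the fit without an experiment term 16 (13 higher, 3 lower), the NEB libraries alone 692 (471 higher, 221 lower) and the SYS libraries alone 0. With a library left out the count ran from 95 to 522: 95 without NEB control pool 2, 112 and 131 without NEB control pools 3 and 1, 103 and 151 without NEB Mettl3 RNAi pools 2 and 3, and 522 without SYS control pool 1. Chosen after seeing the data, leaving out SYS pool 1 of both genotypes gave 944 genes and leaving out SYS pool 2 gave 582. limma-voom (282), DESeq2 size factors (281), library size alone (250), heat shock genes left out of the scaling (285), no filter (260) and a spread shared by all 20 head inputs (401) stayed within 1.5 times. All 283 genes, where tested, kept their direction in each of these fits (282 in NEB alone, 279 in SYS alone).

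The head and brain interaction gave 25 genes in DESeq2 and 13 with the inferred brain sequencing set as a term. It gave 1 to 4 with a library left out (4 without SYS control pool 1). The heat-shocked and basal interaction gave 1 gene in each fit, which in DESeq2 was Mettl3 and with the replicate block, added after seeing the data, was Hsp70Ab. With the replicate block in heads, also added after seeing the data, the head and brain interaction kept its 2 genes. Brains gave 1172 genes with the inferred sequencing set as a term and 1171 with the replicate block. Brain numbers were not taken as pairs, with correlations from -0.00767 to 0.256 for the same number and from -0.344 to 0.584 for different numbers. Basal heads gave 1421 with the replicate block. The NEB antibody gave an m6A-dependent list of 1366 genes, and the list from control IP over input, added after seeing the data, moved the share of higher genes to 4.65%. The cause of these differences was not tested.

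Signs turned in 5 genes that were not called. Flacc was at -0.0103 in NEB alone, at -0.007102 without SYS pool 1 of both genotypes, and at -0.01416 to 0.04621 with a library left out. Hakai was at 0.03816 in NEB alone, at 0.01555 without SYS pool 1 of both genotypes, and at -0.04227 to 0.02022 with a library left out. In SYS alone Hsp70Aa was at 0.06806, Hsp70Ba at 0.02116 and DnaJ-1 at 0.01262. Depth limits Mettl3 itself, at 6 to 7 counts per Mettl3 RNAi library.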
